A study of Mus musculus with 112 samples.

Results

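Diversity Outbred mice wore a cast on the right hind limb, and the response of the right gastrocnemius was compared between mice numbered 1 to 20 and mice numbered 21 to 59. The response of a mouse was the change in log2 CPM (read counts scaled to a common library size) of its right, immobilized limb against its left, control limb. The members were 88 of the 112 libraries of the series, from 44 of 56 mice. Mice 1-20 gave 34 libraries from 17 mice, 9 females and 8 males, and mice 21-59 gave 54 libraries from 27 mice, 12 females and 15 males. Left out were 10 mice with a limb low in Acta1, the skeletal muscle actin, and males 15 and 16, whose limbs look exchanged. Mice 1-20 lost 3 animals by this and mice 21-59 lost 9.

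All animals were 16 weeks old and had a single limb cast for 3 weeks, with no other treatment named. Diversity Outbred mice are an outbred stock bred from several inbred founder strains, so that every animal has its own genotype and the animals of a block are not copies of each other. The control was the left limb and the immobilized limb the right one in every animal, so that side and cast cannot be told apart. The labels give a number to each mouse and do not say what the numbers stand for, so whether number 20 marks a change of cohort, operator or library run is not known here. The split at number 20 and the markers Mmp13, Mmp3 and Cthrc1 were chosen by their measured levels by mouse number in these same libraries, and the 3 markers are therefore described with no test.

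Skeletal muscle that is held still loses mass and oxidative capacity, and its connective tissue is remodelled. Collagenases and stromelysins, enzymes that fibroblasts and macrophages secrete, cut the collagen and proteoglycan around the fibres. Muscle fibres that lose nerve input or activity are known to make more acetylcholine receptor subunits, in part through the transcription factor myogenin. Tendon cells, which sit where the gastrocnemius passes into the Achilles tendon, carry a set of matrix genes of their own that enter a sample with the amount of tendon cut.

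Total counts of the kept libraries ran from 1716485 to 9995936 with a median of 4417450. The low-Acta1 rule took limbs under 50% of the median of 112 libraries, 31393 CPM, and the highest limb it took held 41.1% of that median while the lowest limb kept held 63.4%. On 150 genes, 54 of 56 control limbs were most like the other limb of their own mouse, and the control limbs of males 15 and 16 each matched the other's immobilized limb, with a correlation of 0.96 against 0.15 for their own. Of 9 library measures compared between the blocks (total count, mitochondrial share and Acta1 in either limb and as a change), none passed after adjustment. The nearest was the change in mitochondrial share of counts, -5.71 ± 3.99 percentage points in mice 1-20 and -2.38 ± 4.68 in mice 21-59 (SD, n = 17 and 27, two-sided permutation test within sex, p = 0.023, adjusted p = 0.15). Some libraries stood apart by markers of other tissues. The immobilized limb of female 30 held 8650 CPM over 5 skin markers, against at most 35.6 CPM in any other kept library, and 7 mice, 1 of mice 1-20 and 6 of mice 21-59, had a limb with over 2000 CPM of 8 adipocyte markers.

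Mmp13, the collagenase that cuts fibrillar collagen, differed between the blocks in how many immobilized limbs held it above 1 CPM. Its level in the immobilized limbs of mice 1-20 ran from 0 to 129 CPM with a median of 14.9 CPM, and in the immobilized limbs of mice 21-59 from 0 to 92.4 CPM with a median of 0.443 CPM. The ranges overlapped almost wholly, but 13 of 17 immobilized limbs of mice 1-20 were above 1 CPM, against 9 of 27 of mice 21-59. Within the later numbers the share was the same on both sides of number 40, with 5 of 15 limbs in mice 21-40 and 4 of 12 in mice 41-59. No control limb exceeded 1 CPM, the highest being 0.592 CPM in mice 1-20 and 0.56 CPM in mice 21-59. Among females, 8 of 9 immobilized limbs of mice 1-20 and 2 of 12 of mice 21-59 were above 1 CPM, and among males 5 of 8 and 7 of 15.

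Summed over libraries, Mmp13 stood at 24.5 CPM (95% Poisson interval 23.5 to 25.7, counting error only) in the immobilized limbs of mice 1-20, against 0.087 CPM (0.0319 to 0.189) in their control limbs. In mice 21-59 it stood at 9.9 CPM (9.36 to 10.5) in immobilized limbs and 0.069 CPM (0.0298 to 0.136) in control limbs. With so few control counts, 6 in mice 1-20 and 8 in mice 21-59, the fitted size of the change depends on the handling of zeros. The fitted log2 fold change was 7.51 ± 0.56 in mice 1-20 and 6.09 ± 0.60 in mice 21-59 (SE), with a difference of 1.42 ± 1.53. That difference was 3.27 ± 2.10 in females and -0.44 ± 1.09 in males, and on either side of number 40 the fitted change was 7.61 in mice 21-40 and 5.13 in mice 41-59. Each SE was worked back from the F value of its own contrast. With control counts near 0, the SEs of Mmp13 do not combine across contrasts and are rough. The median change of single mice was 5.07 on the log2 scale in mice 1-20 and 0.94 in mice 21-59.

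Mmp3, the stromelysin that cuts proteoglycans and activates other metalloproteinases, differed less between the blocks. Immobilized limbs held 0.198 to 39.7 CPM (median 7.98) in mice 1-20 and 0.238 to 136 CPM (median 4.52) in mice 21-59, and the highest limb was in mice 21-59. Control limbs held 0 to 4.14 CPM (median 0.27) in mice 1-20 and 0 to 5.32 CPM (median 0.312) in mice 21-59. The immobilized limb was higher in 14 of 17 mice 1-20 and in 24 of 27 mice 21-59, and the fitted changes were 3.82 ± 0.67 and 2.78 ± 0.52 on the log2 scale, a difference of 1.04 ± 0.90.

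Cthrc1, a secreted protein of activated fibroblasts, was higher in the immobilized limb of all 17 mice 1-20 and of 21 of 27 mice 21-59. Its immobilized limbs held 0.198 to 9.7 CPM (median 3.58) in mice 1-20 and 0 to 37 CPM (median 1.18) in mice 21-59, against control medians of 0.197 CPM and 0.373 CPM. The fitted log2 changes were 3.77 ± 0.55 in mice 1-20 and 2.21 ± 0.40 in mice 21-59, a difference of 1.56 ± 0.73. For all 3 markers the median of the immobilized limbs was higher in mice 1-20, and the ranges of the blocks overlapped.

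**Figure D1:**
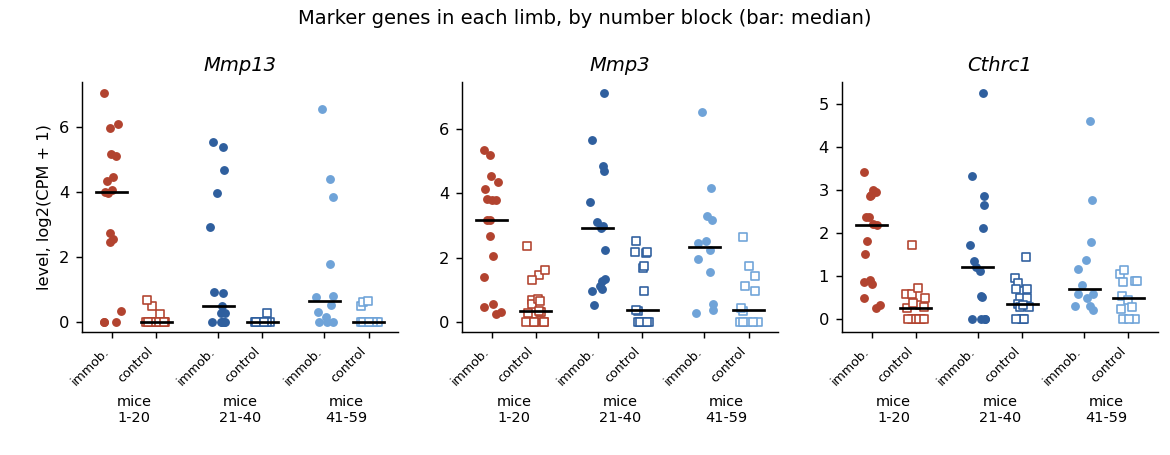
Level of Mmp13, Mmp3 and Cthrc1 as log2(CPM + 1) in every kept limb of mice 1-20 (17 mice), 21-40 (15 mice) and 41-59 (12 mice), with filled circles for immobilized limbs, open squares for control limbs and bars for medians. Most Mmp13 points of mice 1-20 lie high, while those of the later mice split into a few high limbs and many at or near 0.

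Mmp13 and Mmp3 lie on the same chromosome, and the promoter of each is shown because both genes were high in the same tissue and both hold a match to the AP-1 motif TGANTCA (N is any base, searched on both strands). The sequences are RefSeq's on GRCm38.p6, 250 bases before to 50 after the gene's start, 5′ to 3′, with the match in capitals. The Mmp13 window is chr9:7272264-7272563 on the plus strand, with its match starting at base -35 from the start, and the Mmp3 window is chr9:7445572-7445871 on the plus strand, with its match starting at base -46. Of 32851 promoters of this length, 7.81% hold at least 1 match, and a match is a description of the letters, not of binding.
Mmp13: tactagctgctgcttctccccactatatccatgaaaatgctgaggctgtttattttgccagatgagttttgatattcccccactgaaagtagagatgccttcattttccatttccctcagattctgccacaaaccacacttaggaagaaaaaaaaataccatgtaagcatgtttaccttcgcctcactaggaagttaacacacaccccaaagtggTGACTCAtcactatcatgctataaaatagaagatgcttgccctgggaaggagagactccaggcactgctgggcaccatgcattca
Mmp3: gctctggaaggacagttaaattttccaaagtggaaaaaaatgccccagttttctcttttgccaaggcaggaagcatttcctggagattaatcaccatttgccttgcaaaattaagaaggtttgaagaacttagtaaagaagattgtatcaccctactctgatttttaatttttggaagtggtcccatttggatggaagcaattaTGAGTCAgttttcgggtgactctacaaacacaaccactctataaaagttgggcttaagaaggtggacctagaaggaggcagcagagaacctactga

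The genes called in both blocks moved in the same direction. Of 12416 genes tested, 1401 passed in mice 1-20 (quasi-likelihood test of edgeR, Benjamini-Hochberg adjusted p at most 0.05), or 11.3%. Of these 644 (5.19%) rose and 757 (6.1%) fell under the cast. In mice 21-59, 2057 passed (16.6%), of which 1013 (8.16%) rose and 1044 (8.41%) fell. These lists include the 3 markers, from which nothing is read here. Both blocks called 725 genes, 51.7% of the list of mice 1-20 and 35.2% of the list of mice 21-59, and all 725 had the same sign, 291 higher and 434 lower. The blocks share no library. The counts over all genes moved with the mice kept, and list counts with other sets of mice are to be read beside them. With all 56 mice 134 of 13037 genes rose in mice 1-20 and 299 in mice 21-59, and 125 and 359 fell. Without the 7 mice rich in adipocyte markers 893 and 609 of 12291 rose, and 987 and 666 fell. Without female 30, of 12359 genes 705 and 535 rose, and 821 and 585 fell. Across genes, which are not independent replicates, the log2 fold changes of the blocks had a Pearson correlation of 0.60.

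The difference between the blocks, tested gene by gene as the cast response of mice 1-20 minus that of mice 21-59, passed for 0 of 12416 genes in edgeR's quasi-likelihood test. At an unadjusted p of at most 0.05 there were 746 genes, 6.01% of those tested, 398 with a positive difference (3.21%) and 348 with a negative one (2.8%), and without the 7 mice rich in adipocyte markers there were 446. The median standard error of the difference was 0.17 on the log2 scale. DESeq2 called 1 gene, Cpne2, and limma on the change of each mouse called 0. Leaving out female 30 gave 1 gene in edgeR, Crispld2. Nor did any gene pass in females alone (600 at an unadjusted p of at most 0.05, 4.83%), in males alone (316, 2.55%), or in the male minus female difference of that difference (285, 2.3%, and 599 without the 7 mice rich in adipocyte markers). The differences given below are therefore estimates with intervals, and none passed adjustment over all genes unless it is named as passing.

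Genes called in mice 1-20 had smaller fitted changes in mice 21-59 as a median, and the reverse held too. Choosing genes by their result in a block favours larger values in that block, so nothing about the blocks is read from this order. The 644 genes higher in mice 1-20 had a median log2 fold change of 0.40 there and of 0.22 in mice 21-59. The 1013 genes higher in mice 21-59 had a median of 0.31 in mice 1-20 and of 0.42 in mice 21-59. Of the genes called in mice 1-20, 96.6% had the same sign in mice 21-59, and of those called in mice 21-59, 96.2% had the same sign in mice 1-20, against 74.4% of all genes tested.

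**Figure D2:**
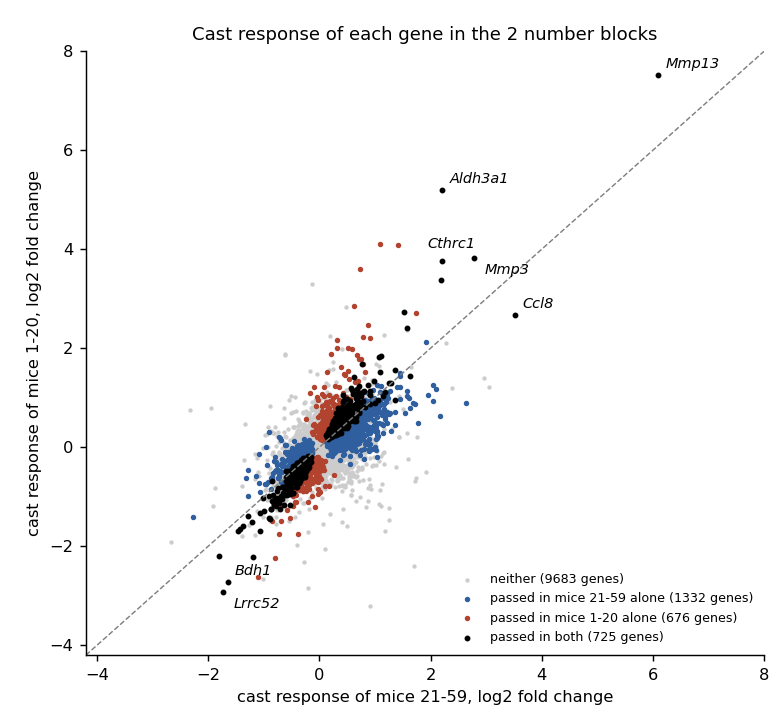
Cast response of each of 12416 genes, with the log2 fold change of mice 1-20 on the vertical axis and that of mice 21-59 on the horizontal axis, and the dashed line where both are equal. Black points passed in both blocks (725 genes), and all of them lie in the quadrants of equal sign.

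Among the genes with the largest rises in mice 1-20 was Aldh3a1, an aldehyde dehydrogenase, at 5.19 ± 0.70 on the log2 scale (adjusted p = 9.7e-06, higher in 15 of 17 mice), against 2.21 ± 0.51 in mice 21-59 (adjusted p = 0.0046, 18 of 27). Its immobilized limbs ran from 0.256 to 1150 CPM with a median of 4.85 CPM in mice 1-20 and from 0 to 162 CPM with a median of 1.68 CPM in mice 21-59, the highest limb lying far above the median in both blocks. The difference was 2.98 ± 0.90, made up of 6.00 ± 1.47 in males and -0.04 ± 0.86 in females. C1qtnf3, a secreted C1q-like protein, rose by 2.86 ± 0.59 in mice 1-20 (adjusted p = 0.0013) and stood at 0.63 ± 0.43 in mice 21-59 (adjusted p = 0.31). Krt18, an intermediate filament keratin, rose by 2.71 ± 0.78 in mice 1-20 (adjusted p = 0.019), as did Chil1, a chitinase-like secreted protein, by 2.47 ± 0.69 (adjusted p = 0.016).

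The 8 largest rises in mice 21-59 were taken among called genes with an average log2 CPM of at least 1. Each of these genes had the same direction in at least 80% of these mice. They were Ccl8, Ccl12, Clec10a, Cpxm1, H2-Ab1, H2-Aa, Cd74 and the marker Mmp3. Mmp3 was chosen on these same libraries, so its place in this ranking is not read as a test. Ccl8, a chemokine for monocytes, rose by 3.52 ± 0.53 in mice 21-59 (adjusted p = 0.00021) and by 2.66 ± 0.67 in mice 1-20 (adjusted p = 0.0073). H2-Ab1, H2-Aa and Cd74, which build and escort class II molecules, rose by 1.57 ± 0.33, 1.57 ± 0.32 and 1.46 ± 0.33 in mice 21-59, and in mice 1-20 stood at 1.03 ± 0.44, 1.14 ± 0.43 and 0.98 ± 0.42 with adjusted p of 0.12, 0.074 and 0.13. Clec10a, a lectin of macrophages and dendritic cells, rose by 1.68 ± 0.38 in mice 21-59 (adjusted p = 0.0037) and stood at 0.89 ± 0.54 in mice 1-20. None of these differences passed. That of Ccl8 was -0.86 with a 95% interval of -2.69 to 0.97. That of Cpxm1 lay the other way, at 0.82, as did that of the marker Mmp3, given with no test, at 1.04.

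Lrrc52, an auxiliary subunit of large-conductance potassium channels, fell by 2.92 on the log2 scale in mice 1-20 (SE 0.47, adjusted p = 8.8e-05), in all 17 mice, and by 1.73 in mice 21-59 (SE 0.35, adjusted p = 0.0019), in 23 of 27. Kcnma1, the pore-forming subunit of such channels, fell by 1.02 and 1.01 (adjusted p = 0.0025 and 0.0011). Bdh1, which oxidises the ketone body 3-hydroxybutyrate, had a median of 7.31 CPM in immobilized and 64.1 CPM in control limbs of mice 1-20, against 11.0 CPM and 47.5 CPM in mice 21-59, and fell by 2.73 and 1.65 (adjusted p = 0.00024 and 0.0035). Dusp18, a phosphatase, fell by 2.21 and 1.19 (adjusted p = 3.2e-05 and 0.0034), with a difference of -1.01 (95% interval -1.86 to -0.17, adjusted p = 0.81). Dach2, a repressor of myogenin in mouse muscle, fell by 1.76 in mice 1-20 (adjusted p = 0.048) and stood at -0.73 ± 0.40 in mice 21-59 (adjusted p = 0.20).

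Genes of oxidative metabolism were lower in the immobilized limb in both blocks, and each of the 6 lists of them had its median further from 0 in mice 1-20, without a test of that difference. Without the 7 mice rich in adipocyte markers this order turned for fatty acid use (-0.41 and -0.44) and the tricarboxylic acid cycle (-0.27 and -0.28). Of 13 protein-coding transcripts of the mitochondrial genome, 11 fell in mice 1-20 and 6 in mice 21-59, with medians of -0.64 and -0.34, where the median of all genes was 0.01 and 0.02 and the share of genes called lower 6.1% and 8.41%. mt-Co1, a cytochrome oxidase subunit, fell by 0.84 in mice 1-20 (SE 0.16) and by 0.58 in mice 21-59 (SE 0.13), and its difference was -0.26 (95% interval -0.68 to 0.15). Of 28 genes of fatty acid use, 18 fell in mice 1-20 and 12 in mice 21-59, and those 12 were all among the 18. Acadm, which starts the oxidation of medium-chain fatty acids, fell by 0.70 and 0.44 (adjusted p = 0.00073 and 0.0073).

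The 3 genes of this list with an unadjusted p of at most 0.05 in the difference were Hadh, Cd36 and Lpl. Over all genes tested, 2.8% had such a p in this direction. Hadh, a dehydrogenase of fatty acid oxidation, fell by 0.46 in mice 1-20 (adjusted p = 0.0018) and stood at -0.17 ± 0.08 in mice 21-59. Lpl, the lipoprotein lipase that releases fatty acids from circulating triglycerides, fell by 1.18 in mice 1-20 (SE 0.25, adjusted p = 0.0019, lower in 16 of 17 mice) and stood at -0.47 ± 0.21 in mice 21-59 (adjusted p = 0.11, lower in 17 of 27), a difference of -0.71 (95% interval -1.37 to -0.05, adjusted p = 0.82). Cd36, a fatty acid transporter, was lower in all 17 mice 1-20, by 0.75 (adjusted p = 0.0046), and in 16 of 27 mice 21-59 (-0.23 ± 0.15). Adipocytes express Lpl and Cd36 too. Over 8 adipocyte markers the summed level ran from 233 to 1090 CPM in immobilized limbs of mice 1-20 and from 344 to 5640 CPM in those of mice 21-59, and from 242 to 3810 CPM in control limbs of mice 1-20 and from 401 to 2390 CPM in those of mice 21-59. Without the 7 mice over 2000 CPM, 19 of the 28 genes of fatty acid use fell in mice 1-20 and 20 in mice 21-59, with medians of -0.41 and -0.44, and 0 had an unadjusted p of at most 0.05 in the difference. The differences of Lpl, Cd36 and Hadh were then -0.39, -0.25 and -0.13. Without female 30 the count in mice 21-59 was 7, and that of the mitochondrial genome 3. With all 56 mice, 9 genes of fatty acid use and 2 of the mitochondrial genome fell in mice 1-20, and 8 and 2 in mice 21-59. Over all genes 987 of 12291 fell in mice 1-20 and 666 in mice 21-59 without those 7 mice. Without female 30, 585 of 12359 fell in mice 21-59, and with all 56 mice 125 and 359 of 13037 fell. The part of fat, skin or low-Acta1 limbs in these counts was not tested.

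Of 12 genes of the PGC-1, PPAR and ERR group 7 fell in each block, 6 of them in both. Of all genes 6.1% fell in mice 1-20 and 8.41% in mice 21-59. Ppargc1a, the coactivator PGC-1 alpha, fell by 0.83 in mice 1-20 (adjusted p = 0.0036, lower in all 17 mice) and by 0.53 in mice 21-59 (adjusted p = 0.015, lower in 20 of 27). Perm1, a muscle regulator of oxidative genes, fell by 1.17 and 0.63 (adjusted p = 0.00047 and 0.013). Ketone and acetate use gave 5 and 4 of 7 genes lower, among them Oxct1 and Acss1, and the tricarboxylic acid cycle 6 and 8 of 17, among them Idh2 and Dld. Without female 30 the count of the tricarboxylic acid cycle in mice 21-59 was 3, and without the 7 mice rich in adipocyte markers 9 and 12 of its genes fell. With all 56 mice 1 and 2 of the PGC-1 group fell and 1 gene of the cycle in each block. In that set 125 and 359 of 13037 genes fell. Slow fibre genes gave 0 of 10 in either block at the threshold, with medians of -0.64 and -0.61. Of the adult fast myosins, Myh2 of type IIA fibres fell in mice 21-59 (-0.85 ± 0.29, adjusted p = 0.039) and stood at -0.59 ± 0.36 in mice 1-20, and Myh4 of type IIB fibres stood at 0.43 ± 0.20 in mice 1-20 and -0.03 ± 0.16 in mice 21-59.

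Ribosomal protein genes rose in both blocks. Of 32 measured, 21 rose in mice 1-20 and 20 in mice 21-59, 17 of them in both, with medians of 0.31 and 0.21, where 5.19% and 8.16% of all genes rose. Without female 30 the count in mice 21-59 was 11, where 535 of 12359 genes rose. With all 56 mice 0 genes passed in mice 1-20 and 3 in mice 21-59, with medians of 0.25 and 0.23. In that set 134 and 299 of 13037 genes rose. Rps4x, of the small subunit, rose by 0.47 in mice 1-20 (adjusted p = 0.00036, all 17 mice) and by 0.37 in mice 21-59 (adjusted p = 0.0011, 25 of 27). Proteasome subunits gave 11 higher and 1 lower of 31 in mice 1-20, and 7 higher in mice 21-59, all 7 among the 11. Without female 30 the count in mice 21-59 was 2, and with all 56 mice 0 and 4 rose. The ubiquitin ligases Fbxo32 and Trim63, known markers of early atrophy, stood at -0.16 ± 0.15 and 0.02 ± 0.13 in mice 1-20, and at -0.20 ± 0.11 and -0.21 ± 0.10 in mice 21-59, and passed in neither block. Fst, an inhibitor of myostatin, rose by 0.94 and 0.56 (adjusted p = 0.00071 and 0.0074).

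Of 8 metalloproteinases tested besides Mmp13 and Mmp3, Mmp2 and Mmp14 rose in both blocks, where 5.19% and 8.16% of all genes rose. Mmp2, the gelatinase A, rose by 1.04 ± 0.18 in mice 1-20 and by 0.69 ± 0.14 in mice 21-59 (adjusted p = 0.00022 and 0.0020), and Mmp14, its membrane-bound activator, by 1.52 ± 0.27 and 1.08 ± 0.21 (adjusted p = 0.00028 and 0.0015). Timp1, an inhibitor of these enzymes, rose in mice 1-20 (2.21 ± 0.66, adjusted p = 0.025) and stood at 0.91 ± 0.54 in mice 21-59 (adjusted p = 0.24), and its difference of 1.29 had a 95% interval of -0.45 to 3.03. Of 11 lysosomal cathepsins 2 rose in mice 1-20 (5.19% of all genes) and 8 in mice 21-59 (8.16% of all genes), but 5 and 3 without the 7 mice rich in adipocyte markers, 3 and 4 without female 30, and 1 and 3 with all 56 mice. Over all genes these sets gave 893 and 609 of 12291, 705 and 535 of 12359, and 134 and 299 of 13037 higher. Ctsk, a collagen-cutting cathepsin, rose in both (1.34 ± 0.35 and 0.98 ± 0.26).

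Fibroblast and elastic fibre genes held members of both kinds. Of 15 activated fibroblast genes 5 rose in mice 1-20 and 4 in mice 21-59, with medians of 0.85 and 0.51, where 5.19% and 8.16% of all genes rose. Cthrc1, a marker chosen on these same libraries, is among both counts. The counts and medians of this list are therefore given as a description, not as a test. Without the 7 mice rich in adipocyte markers 10 and 5 rose, and with all 56 mice 4 and 2. Over all genes 893 and 609 of 12291 rose in the former set, and 134 and 299 of 13037 in the latter. Cpxm1, a secreted carboxypeptidase-like protein, rose in both blocks (2.41 ± 0.41 and 1.58 ± 0.32), while Thbs2, a matricellular thrombospondin, rose in mice 1-20 (0.84 ± 0.23) and stood at 0.05 ± 0.17 in mice 21-59. Tnc, tenascin C of tendon and injured matrix, stood at 0.96 ± 0.37 and -0.09 ± 0.29, and Postn, periostin, at 0.50 ± 0.51 and 0.68 ± 0.41, and neither passed in a block. Of 15 elastic fibre genes 5 and 4 rose, among them Mfap4, a microfibril protein, in mice 1-20 (1.05 ± 0.25, against 0.17 ± 0.19 in mice 21-59) and Mfap2, another, in both (1.12 ± 0.32 and 1.17 ± 0.25). Without those 7 mice 9 and 3 elastic fibre genes rose, and with all 56 mice 2 and 4.

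Macrophage markers had near equal median responses but unequal counts. Of 18 markers 2 passed in mice 1-20, Gpnmb and Ccr2, and 16 in mice 21-59, where 5.19% and 8.16% of all genes rose, while all 18 had a positive change in both, with medians of 0.87 and 0.98. Gpnmb, a glycoprotein of lipid-laden macrophages, rose by 1.30 ± 0.27 and 1.29 ± 0.21. The counts changed with the mice kept. Without the 7 mice rich in adipocyte markers 12 of 16 markers passed in mice 1-20 and 6 in mice 21-59, with medians of 1.06 and 0.85. In that set 893 and 609 of 12291 genes rose. Without female 30 the count in mice 21-59 was 8, where 535 of 12359 genes rose. With all 56 mice 1 and 7 passed, where 134 and 299 of 13037 genes rose. Summed over 18 markers, immobilized limbs ran from 40.3 to 417 CPM in mice 1-20 and from 85.4 to 1790 CPM in mice 21-59, and control limbs from 28.8 to 200 CPM and from 79.1 to 205 CPM. Of 11 complement genes 5 rose in mice 1-20 and 9 in mice 21-59, where 5.19% and 8.16% of all genes rose, but 8 and 7 without the mice rich in adipocyte markers and 3 and 2 with all 56 mice. Apod, a lipid-binding protein of fibroblasts, was higher by 1.06 ± 0.19 and 0.92 ± 0.15, and Cdkn1a, the cell cycle inhibitor p21, by 0.79 ± 0.15 and 0.34 ± 0.11. Both are given with no test, since their values by block were known when the split was chosen.

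**Figure D3:**
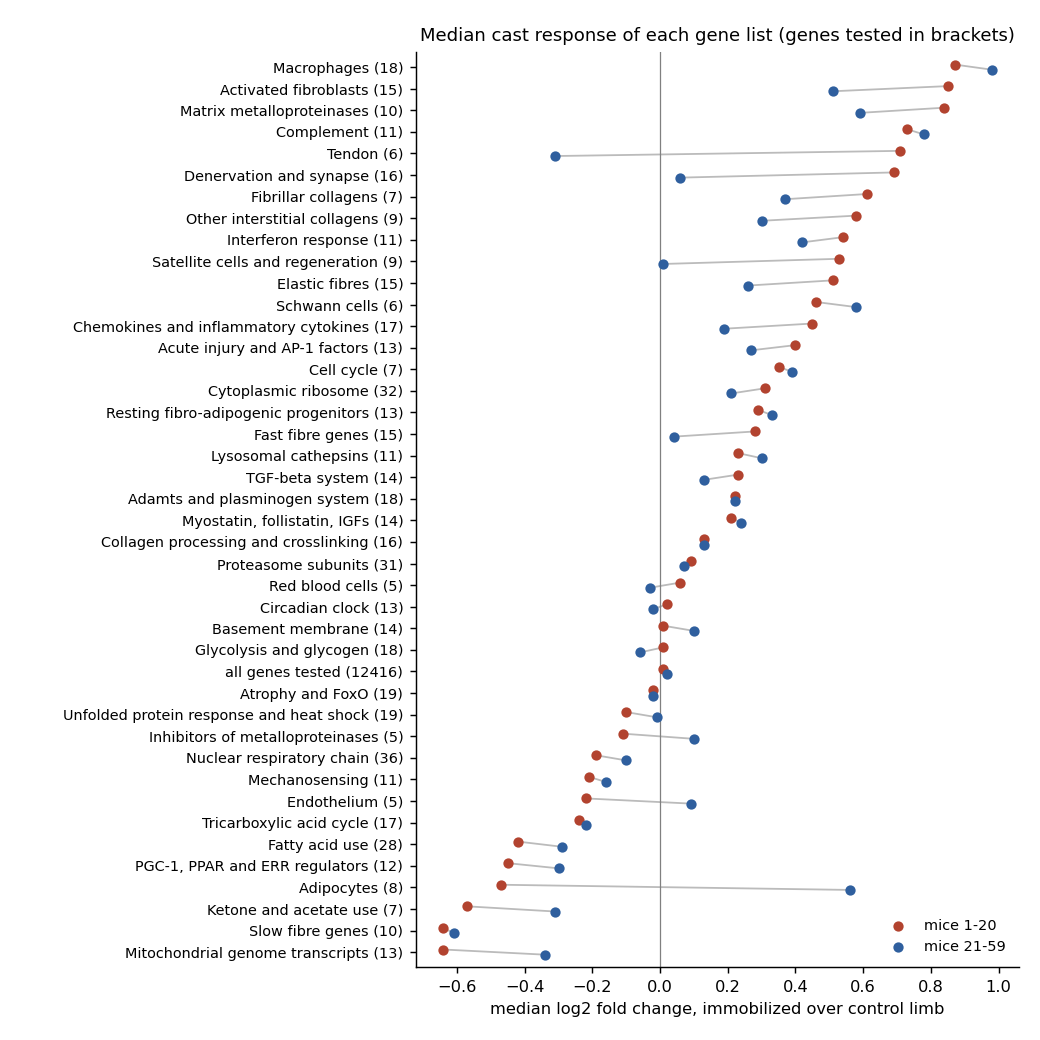
Median log2 fold change of the immobilized over the control limb for each gene list with at least 5 tested genes, in mice 1-20 and in mice 21-59, with the number of genes tested in brackets and all genes tested as a row of its own. The tendon, synapse, regeneration and adipocyte lists lie furthest apart between the blocks.

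Genes of the neuromuscular synapse and of denervation lay apart between the blocks in their cast response. In level, 8 of the 16 tested were higher in immobilized limbs of mice 1-20, where 3.95% of all genes were higher. In their control limbs 3 were lower, where 3.0% of all genes were lower. Of 16 tested members of this list (17 listed), 10 rose in mice 1-20 and 2 in mice 21-59, with medians of 0.69 and 0.06, where 5.19% and 8.16% of all genes rose. In mice 21-59 the count was 1 without female 30 and 1 without the mice rich in adipocyte markers. Over all genes 535 of 12359 and 609 of 12291 rose in mice 21-59 in these sets. All 16 had a positive difference, with a median of 0.71 against -0.01 over all genes, and 9 had an unadjusted p of at most 0.05 where 3.21% of all genes had one in this direction. None passed after adjustment over all genes, the smallest adjusted p being 0.68. With all 56 mice 4 of 15 tested rose in mice 1-20 and 1 in mice 21-59, where 134 and 299 of 13037 genes rose. In that set 1 of the 15 had an unadjusted p of at most 0.05 in the difference. Over all genes 403 had one, in either direction. In bulk tissue, fewer cells of a type and less RNA per cell cannot be told apart.

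Chrna1, the alpha subunit of the muscle acetylcholine receptor, held 22.6 to 200 CPM (median 51.5) in immobilized and 14 to 33.3 CPM (median 24.1) in control limbs of mice 1-20. In mice 21-59 it held 4.97 to 82.4 CPM (median 24.5) in immobilized and 6.72 to 35.7 CPM (median 17.9) in control limbs. The immobilized limbs of mice 1-20 thus lay highest, with overlap, while the medians of the other 3 groups ran from 17.9 to 24.5 CPM. Chrna1 rose by 1.21 ± 0.24 in mice 1-20 (adjusted p = 0.00073, 15 of 17 mice) and stood at 0.35 ± 0.19 in mice 21-59 (adjusted p = 0.20, 18 of 27), and the difference was 0.87 (95% interval 0.25 to 1.48, adjusted p = 0.81). It was 1.01 ± 0.43 in females and 0.72 ± 0.43 in males.

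The other receptor subunits followed the same order. Chrnb1, the beta subunit, rose in both blocks, by 1.06 ± 0.15 in all 17 mice 1-20 and by 0.43 ± 0.12 in 21 of 27 mice 21-59 (adjusted p = 1.4e-05 and 0.015), a difference of 0.63 (95% interval 0.25 to 1.02). Chrng, the gamma subunit of the fetal receptor, which adult fibres replace with the epsilon subunit, was at 0 CPM in 5 of 17 immobilized limbs of mice 1-20 and in 12 of 27 of mice 21-59, with highest values of 25.4 CPM and 3.58 CPM. It rose by 4.09 ± 0.75 in mice 1-20 (adjusted p = 0.00059) and stood at 1.41 ± 0.59 in mice 21-59 (adjusted p = 0.091), though both fitted values rest on control limbs near 0. Chrnd, the delta subunit, stood at 0.76 ± 0.28 and -0.08 ± 0.24 and passed in neither block, and Chrne, the epsilon subunit, rose in mice 1-20 (0.53 ± 0.18, adjusted p = 0.045) and stood at 0.12 ± 0.15 in mice 21-59.

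Myog, which encodes myogenin, had the smallest p of the list in the difference. Its immobilized limbs held 4.24 to 53.5 CPM (median 11.7) in mice 1-20 and 2.08 to 16.3 CPM (median 6.37) in mice 21-59, against control medians of 7.59 CPM and 7.17 CPM. The blocks overlapped, and 3 immobilized limbs of mice 1-20 were above 40 CPM. Myog rose by 0.94 ± 0.21 in mice 1-20 (adjusted p = 0.0023, 15 of 17 mice) and stood at -0.02 ± 0.17 in mice 21-59 (adjusted p = 0.95, 13 of 27), a difference of 0.97 (95% interval 0.43 to 1.51, unadjusted p = 0.00078, adjusted p = 0.68). Hdac4, a histone deacetylase that acts with myogenin in denervated mouse muscle, rose by 0.62 ± 0.13 in mice 1-20 (adjusted p = 0.0010) and stood at 0.06 ± 0.10 in mice 21-59. Gadd45a, a stress gene of the same pathway, rose by 1.23 ± 0.25 in mice 1-20 (adjusted p = 0.0013) and stood at 0.28 ± 0.19 in mice 21-59, and Ncam1, a cell adhesion molecule that spreads over denervated fibres, rose by 0.56 ± 0.19 in mice 1-20 (adjusted p = 0.049).

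The remaining members varied. Runx1, a transcription factor raised in denervated mouse muscle, rose in mice 1-20 (1.68 ± 0.39, adjusted p = 0.0037) and stood at 0.78 ± 0.29 in mice 21-59 (adjusted p = 0.056). Sln, sarcolipin, an inhibitor of the calcium pump, rose in both blocks, by 2.72 ± 0.68 and 1.52 ± 0.54 (adjusted p = 0.0071 and 0.049). Musk and Dok7, which assemble the synapse, and Rapsn, which clusters the receptor, passed in neither block, at 0.22, 0.08 and 0.06 in mice 1-20 and -0.43, -0.06 and -0.08 in mice 21-59. Of the 9 tested regeneration genes, Myod1 and Myf6, transcription factors of the myogenin family, rose in mice 1-20 (0.53 ± 0.14 and 0.58 ± 0.14, adjusted p = 0.0093 and 0.0053), and Pax7, the satellite cell factor, stood at 0.90 ± 0.31 in mice 1-20 and -0.27 ± 0.26 in mice 21-59. Of the 9, 2 rose in mice 1-20 and 1 in mice 21-59, where 5.19% and 8.16% of all genes rose. With all 56 mice 0 of the 9 rose in either block.

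The promoters of Chrna1, Chrng and Myog are shown because these genes were high together in immobilized limbs of mice 1-20 and because myogenin-family factors are known to bind the E-box CANNTG. All matches, on either strand, are in capitals, and the windows are RefSeq's on GRCm38.p6 as above. Chrna1 lies at chr2:73580289-73580588 on the minus strand with 3 matches, Chrng at chr1:87205561-87205860 on the plus strand with 3, and Myog at chr1:134289754-134290053 on the plus strand with 2. Of the 32851 promoters, 72.3% hold a match and 39.6% hold 2 or more.
Chrna1: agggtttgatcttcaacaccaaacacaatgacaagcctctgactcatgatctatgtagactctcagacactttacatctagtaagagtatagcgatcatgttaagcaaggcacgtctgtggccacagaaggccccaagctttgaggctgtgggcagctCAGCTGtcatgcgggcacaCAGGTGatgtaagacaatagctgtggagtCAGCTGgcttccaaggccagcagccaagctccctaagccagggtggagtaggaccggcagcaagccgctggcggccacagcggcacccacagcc
Chrng: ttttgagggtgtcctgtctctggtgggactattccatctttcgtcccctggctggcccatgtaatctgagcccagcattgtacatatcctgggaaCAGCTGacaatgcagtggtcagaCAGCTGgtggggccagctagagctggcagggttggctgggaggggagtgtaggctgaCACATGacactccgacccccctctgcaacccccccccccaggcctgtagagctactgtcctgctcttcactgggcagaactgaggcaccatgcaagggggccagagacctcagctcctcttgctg
Myog: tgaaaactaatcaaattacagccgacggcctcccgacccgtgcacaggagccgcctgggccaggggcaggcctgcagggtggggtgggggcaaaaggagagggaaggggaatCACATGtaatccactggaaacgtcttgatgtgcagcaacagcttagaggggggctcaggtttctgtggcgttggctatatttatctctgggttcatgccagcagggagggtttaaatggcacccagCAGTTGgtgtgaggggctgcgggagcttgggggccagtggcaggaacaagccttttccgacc

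The limbs were then compared between the blocks one side at a time. In immobilized limbs 1341 of 12416 genes passed between the blocks (10.8%), 491 higher in mice 1-20 (3.95%) and 850 lower (6.85%). In control limbs 592 passed (4.77%), 220 higher (1.77%) and 372 lower (3.0%). Of the 16 synapse genes, 8 were higher in immobilized limbs of mice 1-20, and 0 were higher in their control limbs. The 8 genes were Chrna1 (1.24 ± 0.29, adjusted p = 0.0051), Chrnb1 (0.75 ± 0.17, adjusted p = 0.0036), Chrnd (1.40 ± 0.29, adjusted p = 0.0019), Chrng (2.63 ± 0.64), Myog (1.20 ± 0.27, adjusted p = 0.0046), Ncam1, Rapsn and Sln. In control limbs Chrna1 stood at 0.28 ± 0.14 (adjusted p = 0.25) and Myog at 0.11 ± 0.20 (adjusted p = 0.81). Without the 7 mice rich in adipocyte markers 6 of the 8 passed, Ncam1 and Rapsn being lost. In control limbs, 3 genes of the list were lower in mice 1-20: Hdac4, Musk and Runx1.

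Tendon genes lay apart by the level of the control limb. Of 6 tested, 1 rose in mice 1-20 and 0 in mice 21-59, with medians of 0.71 and -0.31, where 5.19% and 8.16% of all genes rose. All 6 had a positive difference, with a median of 1.26. Of them 4 had an unadjusted p of at most 0.05, where 3.21% of all genes had one in this direction. With all 56 mice 0 of the 6 had such a p, and 0 rose in mice 1-20. Without the 7 mice rich in adipocyte markers the median in mice 21-59 turned to 0.12, that of the difference was 0.83, and 2 genes rose in mice 1-20. In the control limbs 4 were lower in mice 1-20 (3.0% of all genes), and in the immobilized limbs 0 passed in either direction. Thbs4, thrombospondin 4 of tendon and fibre ends, held 76.1 to 995 CPM (median 324) in immobilized and 54.9 to 419 CPM (median 126) in control limbs of mice 1-20. In mice 21-59 it held 24.3 to 1220 CPM (median 228) in immobilized and 96 to 602 CPM (median 256) in control limbs. The control limbs of mice 1-20 were the low group, and the other 3 had medians within 228 to 324 CPM.

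Thbs4 rose in mice 1-20 (1.21 ± 0.31, adjusted p = 0.0087, 16 of 17 mice) and stood at -0.11 ± 0.26 in mice 21-59 (14 of 27 higher), a difference of 1.32 (95% interval 0.50 to 2.14, adjusted p = 0.71). Between the blocks it was 0.19 ± 0.37 in immobilized limbs (adjusted p = 0.78) and -0.93 ± 0.24 in control limbs (adjusted p = 0.019). Tnmd, the tendon cell marker tenomodulin, was lower in control limbs of mice 1-20 by 1.40 (adjusted p = 0.013), Comp, a cartilage and tendon matrix protein, by 1.5 (adjusted p = 0.014), and Fmod, a collagen-binding proteoglycan of tendon, by 1.34 (adjusted p = 0.0084). The summed level of the 6 tendon markers ran from 144 to 1420 CPM in immobilized and 87 to 1130 CPM in control limbs of mice 1-20, with medians of 497 and 256 CPM. In mice 21-59 it ran from 30.6 to 2530 CPM in immobilized and 198 to 2030 CPM in control limbs, with medians of 507 and 733 CPM. No marker was at 0 in all libraries of a group, and the amount of tendon in a sample was not measured otherwise.

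The main collagens of tendon went with them. Col1a1 and Col1a2, the chains of type I collagen, were lower in control limbs of mice 1-20 by 1.5 and 1.54 (adjusted p = 0.010 and 0.0066) and stood at -0.64 ± 0.41 and -0.71 ± 0.34 in immobilized limbs. The cast response of Col1a1 was 0.90 ± 0.40 in mice 1-20 (14 of 17 higher) and -0.13 ± 0.33 in mice 21-59 (10 of 27), a difference of 1.03 (95% interval -0.01 to 2.07), whereas that of Col3a1, the type III collagen of looser connective tissue, was 0.97 ± 0.40 and 0.94 ± 0.31 with a difference of 0.03 (95% interval -0.98 to 1.05). Col12a1, which coats type I fibrils, was lower in control limbs of mice 1-20 by 1.11 (adjusted p = 0.024), and Fbln7, a fibulin, by 0.84 (adjusted p = 0.023). Fbln7 rose in both blocks (1.67 ± 0.22 and 0.76 ± 0.16). Without the 7 mice rich in adipocyte markers, none of these 8 tendon and collagen genes passed in control limbs (adjusted p 0.058 to 0.13), with log2 differences of -0.83 to -1.24, and with all 56 mice 4 of the 8 passed. Whether the part of tendon in the samples accounts for these differences was not tested.

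**Figure D4:**
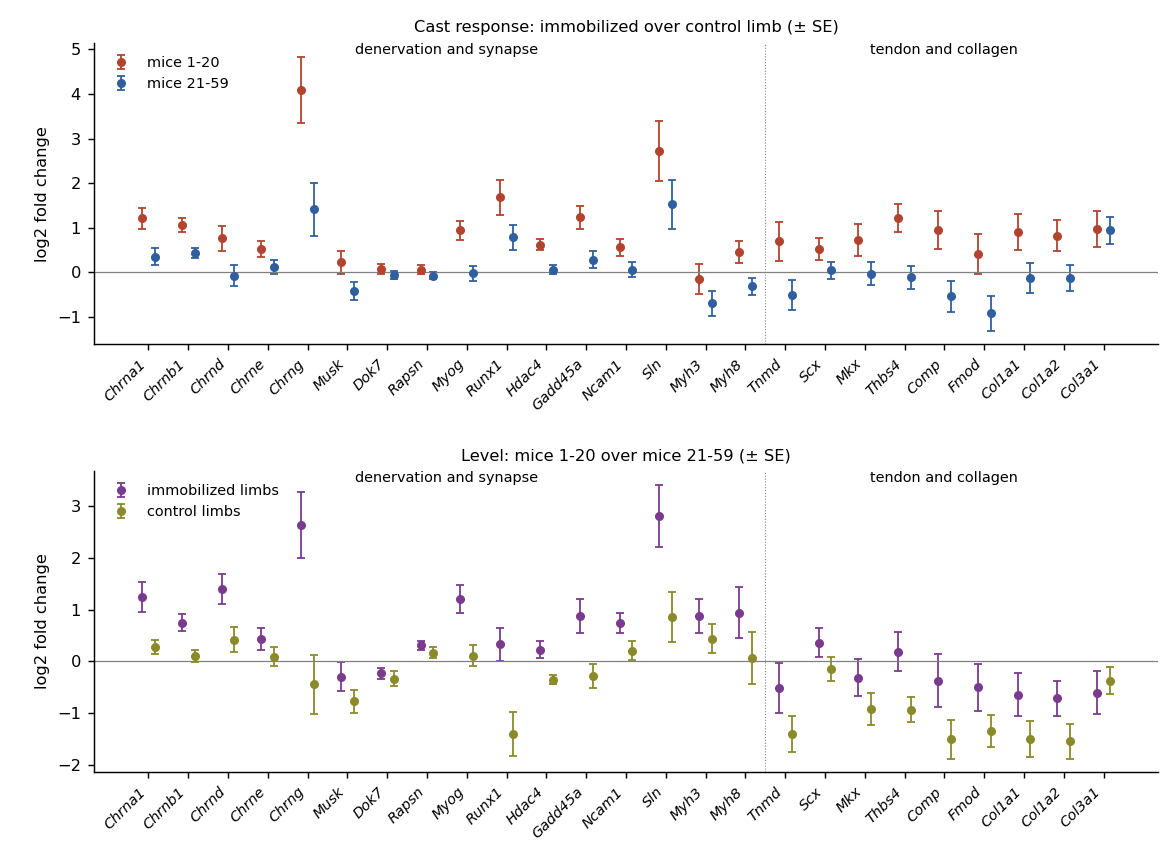
Upper panel, the cast response (log2 fold change ± SE of the immobilized over the control limb) of 16 synapse and 9 tendon and collagen genes in mice 1-20 and mice 21-59. Lower panel, the level of mice 1-20 over mice 21-59 in immobilized and in control limbs, where the receptor subunits and Myog stand above 0 in immobilized limbs and the tendon genes and Col1a1 below 0 in control limbs.

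**Figure D5:**
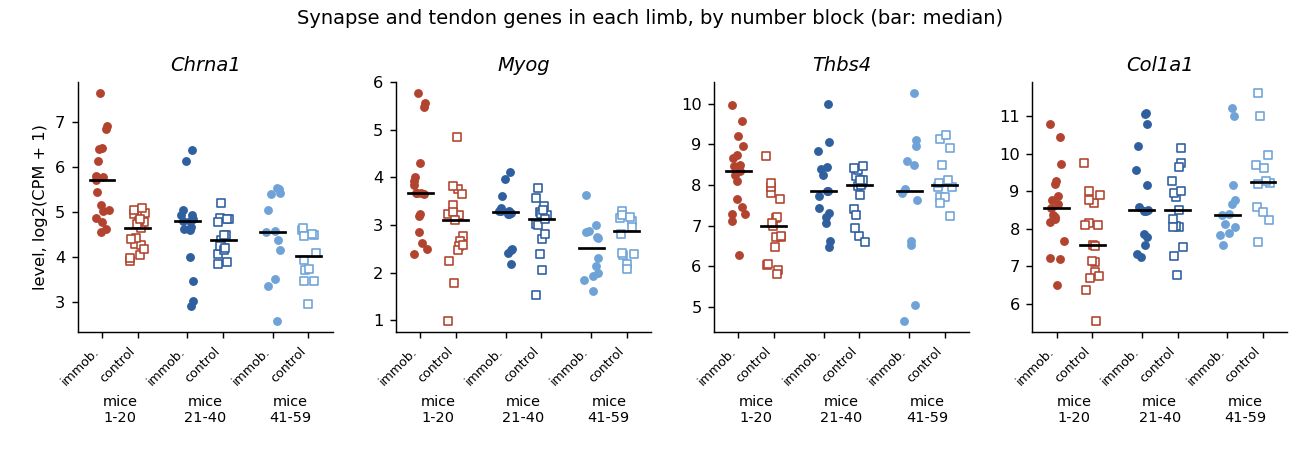
Level of Chrna1, Myog, Thbs4 and Col1a1 as log2(CPM + 1) in every kept limb of mice 1-20, 21-40 and 41-59, drawn as in the plot of the markers. The filled points of mice 1-20 are the high group for Chrna1, and their open squares are the low group for Thbs4 and Col1a1.

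Both groups of genes were looked at on either side of number 40. The fitted cast response of Chrna1 was 1.21 in mice 1-20, 0.16 in mice 21-40 and 0.56 in mice 41-59, that of Myog 0.94, 0.18 and -0.32, and that of Thbs4 1.21, 0.20 and -0.52. That of Chrng was 4.09, 2.37 and 0.01. The responses of mice 21-40 and mice 41-59 thus both lay under that of mice 1-20 for these genes. They were shown because their response in mice 1-20 lay above that of the later mice together, which favours this order. The marker Mmp13 did not follow it, as its fitted change in mice 21-40 lay above that in mice 1-20. Against either group alone 0 genes passed in the difference.

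A further set of genes differed in level between the blocks in both limbs. Of the genes called between blocks, 272 were called in both limbs, 20.3% of those of immobilized and 45.9% of those of control limbs, all with the same sign, the limbs being of the same mice. Dcn, decorin, a proteoglycan of fibroblasts, held 157 to 399 CPM (median 255) in immobilized and 123 to 419 CPM (median 247) in control limbs of mice 1-20, against 247 to 921 CPM (median 491) and 209 to 738 CPM (median 462) in mice 21-59. It was lower in mice 1-20 by 0.94 in immobilized limbs and by 1.00 in control limbs (adjusted p = 3.4e-05 and 2.7e-05), and its cast response was 0.20 ± 0.13 and 0.09 ± 0.10. Pdgfra, the receptor that marks fibro-adipogenic progenitors, was lower by 0.94 and 0.89 (adjusted p = 0.00076 and 0.00012). Lum and Gsn, also of the resting progenitor list, were lower in both limbs. Of its 13 genes 6 were lower in immobilized and 4 in control limbs of mice 1-20, where 6.85% and 3.0% of all genes were lower. With the cast 3 rose in mice 1-20 and 5 in mice 21-59, where 5.19% and 8.16% of all genes rose. Those that rose were 5 and 1 without the mice rich in adipocyte markers, and 3 and 2 without female 30. Over all genes 893 and 609 of 12291 rose in the former set, and 705 and 535 of 12359 in the latter.

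The 3 class II genes named above for their rise in mice 21-59 were lower in both limbs of mice 1-20. H2-Ab1 held a median of 9.76 CPM in immobilized and 4.54 CPM in control limbs of mice 1-20, against 27.1 CPM and 9.15 CPM in mice 21-59, and was lower in mice 1-20 by 1.98 and 1.48 (adjusted p = 0.0027 and 0.024). Its response differed by -0.55 (95% interval -1.66 to 0.56). H2-Aa was lower by 1.80 and 1.63 (adjusted p = 0.0044 and 0.024), and Cd74 by 1.95 and 1.48 (adjusted p = 0.0036 and 0.021).

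The 3 genes with the smallest p in the difference, named after their values were seen, were Gprc5c, Crispld2 and Cpne2. Gprc5c, an orphan receptor, rose by 0.66 ± 0.11 in mice 1-20 and stood at 0.01 ± 0.09 in mice 21-59, a difference of 0.64 (95% interval 0.36 to 0.93, adjusted p = 0.55). Crispld2, a secreted protein of connective tissue, was higher in the immobilized limb of all 17 mice 1-20 (0.93 ± 0.14) and of 16 of 27 mice 21-59 (0.20 ± 0.11), and its control limbs were lower in mice 1-20 by 0.85 (adjusted p = 9.7e-05) while its immobilized limbs did not pass (adjusted p = 0.50). Cpne2, a calcium-dependent membrane-binding copine, was higher in the immobilized limb of all 17 mice 1-20 (1.98 ± 0.26) and of 17 of 27 mice 21-59 (0.59 ± 0.21), and its immobilized limbs were higher in mice 1-20 by 1.28 ± 0.28 (adjusted p = 0.0032). Their differences were 0.73 (95% interval 0.39 to 1.08) and 1.39 (0.71 to 2.07), each with an adjusted p of 0.55 in edgeR.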

How the data were processed

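Raw read counts per gene symbol were deposited by the authors in 1 table for each sex, with 112 library columns and 32544 symbols. Per the labels' protocols, libraries were stranded total RNA depleted of ribosomal RNA. For aligner, counter and build, the labels give no name (not given in the sources used here). Groups and mouse numbers came from the labels. The members, the split at number 20, the gene lists and the tests were chosen with earlier results of these data known.

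Genes were kept by edgeR's filter (12416) and scaled by TMM. With edgeR 4.0.16 in R 4.3.3, counts of 88 libraries were fitted with a term for each mouse and 1 cast effect for each number block and sex, the sexes weighted equally. P-values were adjusted over all genes tested by Benjamini-Hochberg with a threshold of 0.05. Limbs were also fitted by block and sex, one side at a time. CPM used TMM sizes, and changes of single mice a prior count of 2. The mouse numbers pair limbs of the same animal. Over all 56 mice the median correlation of deviations was 0.344, against 0.0105 between limbs of different mice. In the 44 kept mice it was 0.384 between limbs of the same mouse. Whether the mice of a block came from separate cages or days is not stated. The fit was tested on simulated data. Library measures used 100000 permutations.

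Named are the 3 markers, any gene past the threshold in the difference (10 per direction, of which there were 0), the 8 largest rises and declines of each block with the same direction in at least 80% of its mice and an average log2 CPM of at least 1, up to 4 genes per list by the difference and 2 per block, and 31 fixed genes. Alternatives were RLE scaling, libraries sized on nuclear transcripts, other filters, no animal block, DESeq2 1.42.0, limma 3.58.1, and other sets of mice. Of these, 2 sets were chosen after seeing the data: without female 30, and without mice rich in adipocyte markers. Reads carried no molecular identifiers, so counting intervals cover counting error only. Antisense and overlapping genes were taken as counted.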

Additional observations from a re-analysis of the deposited data

Results flagged for a closer look

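Of 100 groups of single-mouse changes checked (50 genes in the females and the males of mice 1-20), 5 held a value far from the others, by a criterion that flags about 1 in 20 groups by chance. Sln changed by -3.3 on the log2 scale in female 7 and was the lowest of its group. Myh8, an embryonic and neonatal myosin, changed by -2.96 in male 12. Scx, a tendon transcription factor, changed by 2.3 in female 4, the highest of the females. Col12a1 changed by -1.41 in male 13, whose control limb was rich in adipocyte markers, and Lrrc52 by -0.22 in female 6, the smallest decline of the females.

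The mice left out of the comparison also held the markers in their immobilized limbs, and their libraries entered only the alternatives that keep these mice. Mmp13 reached 92.7 CPM in an immobilized limb of these 12 mice, against at most 3.22 CPM in their control limbs, and 5 immobilized limbs were above that level. Mmp3 reached 87.6 CPM against at most 14.7 CPM, with 4 immobilized limbs above it. Cthrc1 reached 46.7 CPM against at most 1.71 CPM, with 8 above it. All 3 highest values were of mouse 35, which was left out for a limb low in Acta1. Of the 10 limbs low in Acta1, 5 were immobilized and 5 were control limbs. The part of their tissue content in these values was not tested.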

How the results depend on the processing

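The count of genes passing in the difference was 0 in the alternatives run, except 1 in DESeq2 and 1 without female 30. Keeping the low-Acta1 mice lowered the counts of the cast response, which were 1401 in mice 1-20 and 2057 in mice 21-59 in the main fit. With all 56 mice 259 and 658 genes passed, and with the low-Acta1 mice kept 187 and 572. With only males 15 and 16 kept as well the counts were 1397 and 2059. In mice 21-59 the count was 1120 without female 30, 1275 without mice rich in adipocyte markers, 2 in mice 21-40 alone and 184 in mice 41-59 alone. Between the blocks, immobilized limbs gave 867 genes with all 56 mice and 704 without the adipocyte-rich mice, against 1341 in the main fit. Control limbs gave 2353 and 271, against 592 in the main fit. The cause was not tested. Without the animal as a block ("no replicate block"), 1066 genes passed in mice 1-20 and 1990 in mice 21-59.

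Of 599 recomputed differences of 50 genes, 592 kept their sign. Those that turned were Dok7 (-0.13 with all 56 mice, -0.06 with the low-Acta1 mice kept), Rapsn (-0.14 and -0.13), Scx (-0.00056 with all 56 mice) and Col3a1 (-0.24 without the animal block, -0.05 in limma). The synapse list had 10 genes higher in mice 1-20, but 4 with all 56 mice and 5 with the low-Acta1 mice kept, where 1 gene had an unadjusted p of at most 0.05 in the difference. Over all genes 644 rose in mice 1-20 in the main fit, 134 with all 56 mice and 99 with the low-Acta1 mice kept. At 4417450 counts in the median library, genes near 1 CPM rest on few reads, which limits Mmp13, Chrng and Cthrc1 in control limbs.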

Other observations

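Schwann cell and vessel genes, described in no comparison above, moved in part. Of 6 Schwann cell markers 5 rose in mice 21-59 and 0 passed in mice 1-20, with medians of 0.46 in mice 1-20 and 0.58 in mice 21-59, where 5.19% and 8.16% of all genes rose. The count in mice 21-59 was 3 without the mice rich in adipocyte markers and 3 with all 56 mice. Over all genes 609 of 12291 and 299 of 13037 rose in mice 21-59 in these sets. Mbp, a myelin protein, stood at 0.48 ± 0.24 in mice 1-20 and rose by 0.76 ± 0.19 in mice 21-59, and in control limbs it was higher in mice 1-20 by 0.93 ± 0.24 (adjusted p = 0.017, edgeR). Kdr, the main receptor for vascular endothelial growth factor, fell by 0.71 in mice 1-20 (adjusted p = 0.0041, lower in 15 of 17 mice) and stood at -0.29 ± 0.14 in mice 21-59 (lower in 19 of 27). Pecam1, a general endothelial marker, stood at 0.01 ± 0.10 in mice 1-20 and rose by 0.23 ± 0.08 in mice 21-59 (adjusted p = 0.039).

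Clock and stress genes gave single members. Tef, a clock-driven transcription factor, rose by 0.34 ± 0.11 in mice 1-20 and stood at -0.05 ± 0.08 in mice 21-59, and Cry2, a clock repressor, rose by 0.22 ± 0.07 in mice 1-20 (adjusted p = 0.041). Dnajb9, a chaperone of the endoplasmic reticulum, fell by 0.50 in mice 1-20 (adjusted p = 0.00053, lower in 16 of 17) and stood at -0.13 ± 0.07 in mice 21-59 (lower in 18 of 27), a difference of -0.36 (95% interval -0.61 to -0.12, adjusted p = 0.81).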
